A study of Cicer arietinum with 8 samples.

Results

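The chickpea transcripts described as Unknown were 228 of the 768 features printed on a pulse cDNA array. They were the features whose entry in the printed list read exactly Unknown and whose identifier marked them as chickpea, with CA0857, U357 and U371 left out. Of the 559 chickpea features on the array, a further 66 were described as Unclear and 262 carried a described function. Among the 228 Unknown transcripts, 147 had identifiers starting with U and 81 had identifiers starting with CA. A GenBank accession was listed for 181 of them and is used as the name below, and the other 47 are named by their array identifier. The 181 accessions were looked up among the gene, transcript and protein identifiers of the chickpea RefSeq gene table used here, and 0 of 181 matched. These are another kind of identifier, so the lookup cannot show whether a member matches an annotated gene. No sequence was compared, and no member was given a gene name, a position or a role.

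The chickpea features were made from expressed sequence tags, short reads of transcripts, or from unigenes assembled from such tags. A tag stays without a description where its sequence resembles no gene of assigned role. Such tags can come from genes restricted to 1 plant lineage, or from the poorly conserved ends of known genes. Leaves are the main photosynthetic organs of chickpea, a cool season legume, and flowers, buds and young pods form the reproductive tissue, in which low night temperatures are known to abort flowers and pods. Plants held at low non-freezing temperatures change the abundance of many transcripts, among them genes of cell protection, membrane composition and hormone signalling, a response called cold acclimation.

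The study set cold-treated against untreated plants of 4 chickpea genotypes: Sonali (Tolerant1), ILC 01276 (Tolerant2), Amethyst (Susceptible1) and DOOEN (Susceptible2). Treated plants had 7 nights at 5 °C with days of 15 to 25 °C from 2 weeks after flowering. Leaves were sampled apart from flowers, which here included buds and early pods, and each RNA came from 5 plants. Every hybridisation set cold against control RNA of 1 genotype and tissue, with the dyes swapped on 1 hybridisation of each group. There were 22 distinct hybridisations, 12 of leaves and 10 of flowers. Each of the 8 groups had 3, except Tolerant2 flowers and Susceptible2 flowers with 2, because replicate 3 of each held the same values as replicate 1 and was counted once. The authors' methods describe 3 biological replications. The sample labels do not say whether replicate hybridisations came from separate plants, so the p-values measure only the spread between hybridisations.

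The hybridisations fell into 3 periods of image quantification named in the scanner headers: the first replicates of Tolerant1 and Susceptible1 (4 hybridisations), their other replicates (8), and all of Tolerant2 and Susceptible2 (10). The first period stood apart. Its hybridisations had 17.8 to 42.5% of spots unflagged, against 56.7 to 68.3% in the second period and 59.4 to 76.4% in the last, and the median control signal was 1.04 to 1.80 times the local background, against 2.48 to 6.27 and 2.98 to 7.34 times. As a check of the tissue labels, 18 of 22 leaf marker features could be tested in control plants. Of these, 10 were higher in leaves than in flowers and 2 were lower, with a median difference of 0.52 on the log2 scale (-1.48 to 2.03). No flower marker list was used. In these bulk samples, fewer cells of a type and less RNA per cell cannot be told apart.

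Unknown transcripts gave signal in both tissues. A channel was counted as detected where the feature's signal was at least 2 times the local background. In control plants an Unknown transcript was detected on average in 76.2% of leaf channels and 84.6% of flower channels, against 71.3% and 77.9% for chickpea transcripts with a described function and 58.2% and 68.9% for those described as Unclear. The 7 negative controls and blanks were detected in 7.14% of leaf and 4.29% of flower control channels. In cold-treated plants the Unknown transcripts were detected in 83.7% of leaf and 88.2% of flower channels. No member reached saturation on any array.

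In control plants 73 of the 228 Unknown transcripts were detected on all leaf hybridisations, 152 on all flower hybridisations and 69 on all of both. None of the control channels detected 7 members. A further 14 members were detected only in flowers and 2 only in leaves. These 16 were dim: the 14 were detected in at most 6 of 10 flower control channels and the 2 in at most 2 of 12 leaf control channels, and none of the 14 could be tested in all 8 groups. On replicate 1 of Tolerant1 and Susceptible1 leaves, both of the first quantification period, control channels detected 94 and 123 members. The other leaf hybridisations detected 162 to 200 and those of flowers 158 to 217, so these counts do not separate tissue from array quality. Over all features, on average 60.8% of leaf and 69.3% of flower control channels were detected. All 228 passed the filter on low signal, which asked for 1 detected channel on 1 hybridisation. After flagged spots were left out, 84 had a ratio on all 22 hybridisations, 170 had at least 2 ratios in every group, 32 in 1 to 7 groups, 26 in no group, and 7 of these 26 had no ratio at all. The 170 are those compared across all groups below, and they are not all members.

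Abundance in control plants was compared between leaves and flowers through the control channel level, a normalised log2 intensity that was set only against the same feature on other arrays. Unknown transcripts differed between the tissues in both directions, at a share somewhat below that of all features. Of 170 tested, 60 differed between leaves and flowers (35.3%, limma moderated test, Benjamini-Hochberg adjusted p below 0.05), 27 higher and 33 lower in leaves. Among all features tested, 162 of 406 differed (39.9%), with 18% higher and 21.9% lower in leaves. The corresponding shares were 82 of 162 (50.6%) for chickpea transcripts with a described function and 11 of 37 (29.7%) for those described as Unclear. At least a 2-fold difference was seen for 30 of the 170 (12 higher, 18 lower), where 20.7% of all features tested passed both limits. The median difference of the 170 was -0.01 on the log2 scale, with the middle 50% between -0.46 and 0.49, beside a median of -0.11 over all features.

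DY475339 (U319) had the largest excess in leaves, and its level there stood above that of flowers on every hybridisation. Its control channel level ran over 12.27, 13.47 and 14.78 in leaves and 9.24, 11.31 and 12.02 in flowers (lowest, median and highest, log2), a difference of 2.45 ± 0.30 (SE), or 5.47-fold (adjusted p = 1.54e-05). CA0753 had 13.93, 14.36 and 14.91 in leaves and 11.02, 12.25 and 12.96 in flowers, a difference of 2.24 ± 0.21 (adjusted p = 2.08e-06). For both, leaf and flower ranges did not overlap. EB085020 (CA0554) was the next, at 12.65, 13.79 and 15.10 in leaves and 11.51, 12.17 and 14.07 in flowers, a difference of 1.54 ± 0.25 (adjusted p = 0.000198), and its ranges overlapped.

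A smaller excess in leaves, between 1.02 and 1.25 on the log2 scale, was called for a further 9 of the 12 members with the largest leaf excess. They were CA0761, DY475373, CA0712, DY475469, DY475491, EB085034, DY475331, CA0855 and DY475490. For CA0761 the size varied between genotypes that were quantified in different periods, so genotype and period cannot be told apart. Its difference was 1.25 ± 0.29 (limma adjusted p = 0.00301) over all 4 genotypes, 2.05 within Tolerant1 and Susceptible1, and 0.45 within Tolerant2 and Susceptible2. Within Tolerant1 and Susceptible1 it was 0.77 in the first quantification period and 2.28 in the second. DY475373 (U353) depended on flagged spots: its difference was 1.23 ± 0.23 (adjusted p = 0.000869) without them, and -0.01 with them kept. DY475490, at 1.02, lost its call without replicate 1 of Susceptible2 flowers, replicate 2 of Susceptible2 leaves or replicate 1 of Tolerant2 flowers (largest adjusted p 0.0802).

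On the other side, DY475315 (U293) and DY475437 (U420) were the members most depleted in leaves. DY475315 had control channel levels of 9.96, 11.02 and 11.40 in leaves and 12.00, 13.06 and 13.41 in flowers, a difference of -2.20 ± 0.19, or 4.59-fold (adjusted p = 1.55e-06). DY475437 had 11.97, 12.34 and 12.78 in leaves and 13.45, 14.18 and 14.57 in flowers, a difference of -1.80 ± 0.16, or 3.48-fold (adjusted p = 1.55e-06). In both, the highest leaf value lay below the lowest flower value. EB085053 (CA1108) had 12.76, 13.75 and 14.57 in leaves and 14.45, 15.33 and 15.68 in flowers, a difference of -1.61 ± 0.20 (adjusted p = 1.62e-05) with ranges that overlapped narrowly.

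The leaf minus flower difference of DY475503 (U488) also varied in size between genotypes that were quantified in different periods. Its difference was -1.62 ± 0.29 (adjusted p = 0.000695) over all genotypes, -2.41 within Tolerant1 and Susceptible1 and -0.83 within Tolerant2 and Susceptible2. CA0871 was lower in leaves by a difference of -1.33 ± 0.18 (adjusted p = 8.11e-05), with ranges that did not overlap. The other 7 of the 12 members with the largest flower excess were DY475260, EB085024, DY475055, DY475156, DY475232, DY475472 and DY475054, between -1.52 and -1.16. Of these, EB085024 was the least certain, at -1.36 ± 0.49 (adjusted p = 0.0348), and it lost its call in 11 of the 22 fits that each left out 1 hybridisation.

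The 60 were called on the mean of the 4 genotypes, so the agreement among genotypes and periods is in part set by that choice and is given as a description. Of the 27 members higher in leaves, 24 were higher in all 4 genotypes and 3 in 3 of them. Of the 33 lower in leaves, 32 were lower in all 4 genotypes and 1 in 3. Leaf and flower ranges over the hybridisations with a value did not overlap for 11 of the 60. That was 6.47% of the 170 tested, where 5.17% of all features tested were called with ranges apart. On the leaf side the 11 were DY475339, CA0753, CA0705, DY475491 and CA0850. On the flower side they were DY475315, DY475437, CA0871, DY475382, DY475350 and DY475356. The leaf ranges of DY475315, CA0871, DY475350 and DY475356 held no value from the first quantification period. Those of CA0753, DY475437 and DY475382 held 1. Those of the 11 not among the 24 largest differences were named after their values were seen. Within the second and last quantification periods, each of the 60 kept its direction. Within the first, 23 of 24 with values kept it on the leaf side and 13 of 15 on the flower side. As an example, the difference of DY475339 was 1.66, 3.38 and 2.02 in the 3 periods, and that of DY475437 was -1.93, -1.40 and -2.03.

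**Figure D1:**
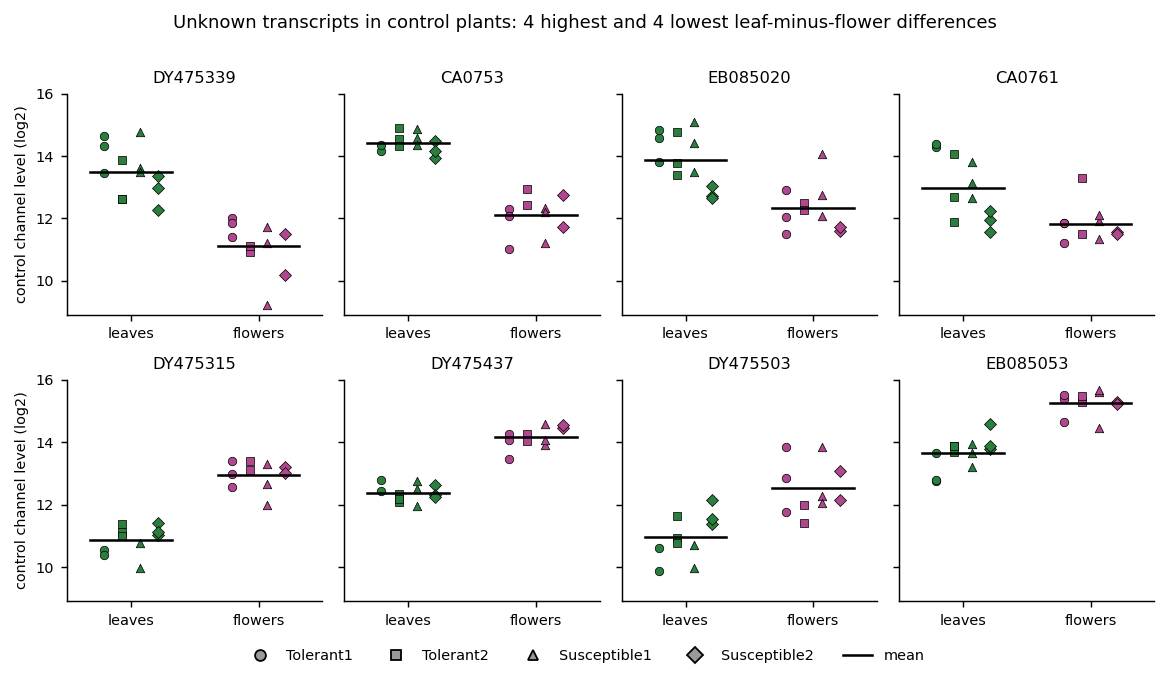
Control channel level (log2, vertical axis) of 4 Unknown transcripts with the largest leaf excess (DY475339, CA0753, EB085020, CA0761) and 4 with the largest flower excess (DY475315, DY475437, DY475503, EB085053), with leaves left and flowers right in each panel, 1 marker per hybridisation, the marker's shape giving the genotype, and the bar giving the mean. Leaf and flower markers do not overlap for DY475339, CA0753, DY475315 and DY475437.

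**Figure D2:**
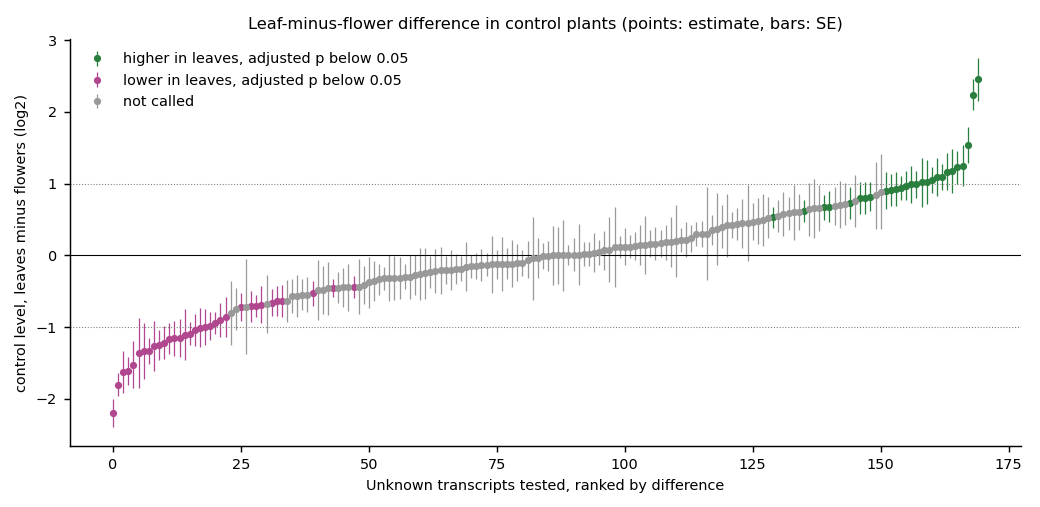
Difference in control channel level, leaves minus flowers (log2, with SE bars), of the 170 Unknown transcripts tested in all groups, in rank order, coloured by whether the limma test called them higher or lower in leaves, with dotted lines at 2-fold. The values run from -2.20 to 2.45, with 27 called higher in leaves and 33 called lower.

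Tolerant1 and Susceptible1 share no hybridisation with Tolerant2 and Susceptible2, so the difference can be taken in each set. The sets also fell in different quantification periods, so genotype and period cannot be told apart between them. The first set alone called 47 of 170 members tested (27.6%, with 27.9% of all features called) and the second 22 of 184 (12%, with 16.4% of all features called). The sign of the leaf minus flower difference was the same in both sets for 111 of 170 Unknown transcripts (65.3%), beside 288 of 406 features of all kinds (70.9%). By identifier, 16 members with an accession were higher and 26 lower in leaves of 127 tested, and of 43 without one, 11 were higher and 7 lower. Of the members with U identifiers, 14 were higher and 23 lower of 102 tested, and of those with CA identifiers, 13 were higher and 10 lower of 68. Over all features tested, 18% were higher and 21.9% lower in leaves.

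Some members moved in near parallel across the hybridisations. Among the 84 with a value on all 22, the control channel levels of DY475392 (U373) and CA0032 gave Pearson's r of 0.98, CA0032 and DY475223 (U184) also 0.98, and DY475392 and DY475223 0.97, where the median over all 3486 pairs was 0.10. The points share arrays and normalisation, the 3 features were printed in the same column of blocks, and no p was computed. The 3 were not separated by tissue over all genotypes, at -0.12, -0.11 and -0.12, and ran opposite ways in the genotype sets. Leaves minus flowers was -1.0, -0.83 and -0.91 in Tolerant1 and Susceptible1, and 0.75, 0.60 and 0.66 in Tolerant2 and Susceptible2. For DY475392 the highest levels were those of replicate 2 of Tolerant1 flowers (15.55) and of Susceptible1 flowers (15.36). Whether these features hold overlapping sequence was not tested.

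The response to cold was measured as the log2 ratio of cold-treated over control RNA, genotype and tissue being the same on an array. In single groups, a call needed an adjusted p below 0.05 and at least a 2-fold change. No Unknown transcript met both limits in any of the 8 groups by limma. In leaves 180 were tested for Tolerant1, 187 for Tolerant2, 187 for Susceptible1 and 191 for Susceptible2, where 1.26%, 0.586%, 0.797% and 0.389% of all features were called, in that order. In flowers 187 were tested for Tolerant1, 191 for Tolerant2, 183 for Susceptible1 and 190 for Susceptible2, where 0% of all features was called. At an unadjusted p below 0.05, in the order of the leaf groups above, 20, 18, 22 and 11 members passed, and in the order of the flower groups 33, 4, 12 and 4. The methods' t-test with their limits gave 0 member calls after adjustment in every group, and 0 calls over all features.

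The mean ratios of the members lay close to 0 in every group. Their medians ran from -0.056 in Susceptible1 flowers to 0.066 in Tolerant1 leaves, and their whole range from -1.53 to 1.37, both ends in Tolerant1 leaves, with 1.37 reached in Susceptible2 flowers too. Mean ratios of at least 2-fold, with no test, were higher for 4 members and lower for 3 in Tolerant1 leaves, and lower for 10 in Tolerant1 flowers. The other groups had at most 5. These counts are given without a share over all features and so not as a trait of the members. The median SD between hybridisations of a group was 0.18 to 0.39, smallest in the groups of 2.

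**Figure D3:**
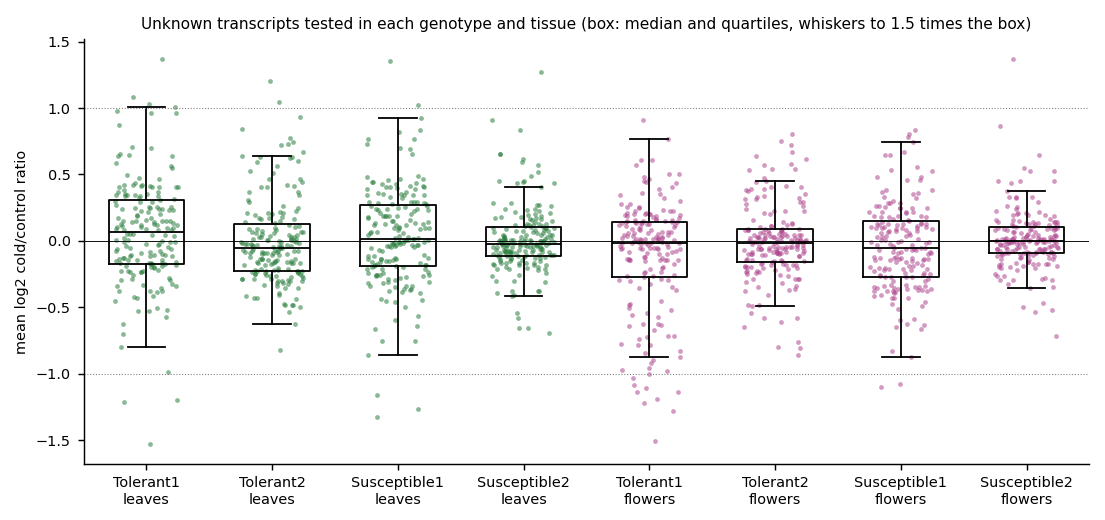
Mean cold over control log2 ratio (vertical axis) of the Unknown transcripts in each of the 8 groups, tolerant before susceptible genotypes, leaves then flowers, with 1 dot per transcript, a box for the quartiles and median, and dotted lines at 2-fold. Group medians lie between -0.056 and 0.066, and the lowest dots are in Tolerant1 leaves and Tolerant1 flowers.

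The widest mean ratios with 1 sign in all hybridisations of a group were these. In Susceptible2 leaves DY475472 (U455) had ratios of 1.84, 1.41 and 0.56, a mean of 1.27 ± 0.65 (SD, n = 3, limma adjusted p = 0.0543), which passed the limits in 4 of the 22 fits that left out 1 hybridisation. In Tolerant2 leaves EB085037 (CA0849) had 1.74, 1.55 and 0.33, a mean of 1.2 ± 0.76 (SD, n = 3, limma adjusted p = 0.283). In both, 2 hybridisations were above 2-fold and the last was well below it.

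DY475055 (U010) had ratios of -0.81, -1.62 and -1.54 in Susceptible1 leaves, a mean of -1.32 ± 0.44 (SD, n = 3, limma adjusted p = 0.191). CA0719 had 2.37, 0.43 and 0.09 in Tolerant1 leaves, a mean of 0.97 ± 1.23 (SD, n = 3, limma adjusted p = 0.135). The high value of CA0719 came from the hybridisation of the first quantification period, and without that hybridisation the mean was 0.26.

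In flowers the widest were EB085028 (CA0709) in Tolerant1, at -0.68, -2.70 and -1.13, and DY475232 (U194) in Susceptible1, at -0.82, -1.09 and -1.40. Their means were -1.50 ± 1.06 and -1.10 ± 0.29 (SD, n = 3, limma adjusted p = 0.250 and 0.642). In the groups of 2, EB085044 had -1.14 and -0.57 in Tolerant2 flowers and DY475451 had 0.80 and 1.94 in Susceptible2 flowers (means -0.86 and 1.37, limma adjusted p of 1.0 each).

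Averaged over the 4 genotypes, 18 Unknown transcripts were called in leaves and 1 in flowers, and whether the response differed between the tissues was tested for each transcript on its own. Here a call needed an adjusted p below 0.05 with no limit on size. Of 176 tested, 13 rose and 5 fell (10.2%), and 34 passed an unadjusted p below 0.05, where 91 of 445 features of all kinds did. Over all features 9.66% were called, 6.29% higher and 3.37% lower, so the Unknown transcripts were called about as often as the array as a whole. The share was 4 of 39 for Unclear and 17 of 183 for described chickpea transcripts. The changes were small: the median of the members was 0.001, beside 0.002 over all features, and 1 of the 18 was past 2-fold.

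DY475437, the transcript 3.48-fold lower in control leaves than in control flowers, was higher in cold leaves on all 11 hybridisations with a value. Its leaf ratios were 1.14 and 0.60 for Tolerant1, 0.83, 0.59 and 0.59 for Tolerant2, 0.59, 0.87 and 0.72 for Susceptible1 and 0.26, 0.54 and 0.51 for Susceptible2. The mean was 0.68 ± 0.09 (SE, limma adjusted p = 6.68e-05), and the means within the 3 quantification periods were 0.59, 0.83 and 0.55.

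DY475382 (U362) was likewise higher on all 11 hybridisations. Its leaf ratios were 0.64 and 0.77 for Tolerant1, 0.41, 0.47 and 0.52 for Tolerant2, 0.42, 0.92 and 0.62 for Susceptible1 and 0.61, 0.57 and 0.16 for Susceptible2. The mean was 0.57 ± 0.09 (SE, limma adjusted p = 0.000255), with 0.42, 0.74 and 0.46 in the 3 periods. These 2 transcripts stayed called in all fits that left out 1 hybridisation and in all other alternatives run, and they were the only 2 members called in leaves with the quantification period as a random block.

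DY475503 had the largest mean, 1.03 ± 0.27 (SE, limma adjusted p = 0.0191), and the widest spread. Its 10 leaf ratios ran over 0.02, 0.88 and 2.00 (lowest, median and highest), all above 0. The ratio averaged 1.59 where cold RNA carried Cy3 and 0.55 where it carried Cy5, and with a dye term for each feature the mean was 1.11 (adjusted p = 0.0034, over all alternatives 0.0034 to 0.270). Its call was lost without replicate 3 of Susceptible1 leaves (adjusted p = 0.0975) or without replicate 3 of Tolerant1 leaves (0.0932). DY475472 was tighter, at 0.42, 0.90 and 1.84 over 10 hybridisations, all above 0, with a mean of 0.92 ± 0.16 (limma adjusted p = 0.00108) and means of 0.90 and 0.93 in the second and last periods, the first giving it no value.

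The other transcripts that rose in cold leaves had means between 0.35 and 0.89. EB085037 averaged 0.89 ± 0.24, DY475416 (U399) 0.74 ± 0.15, DY475521 (U507) 0.67 ± 0.15 and DY475098 (U054) 0.55 ± 0.14 (SE, limma adjusted p = 0.0245, 0.00312, 0.00851 and 0.0175). Their ratios were above 0 on 11 of 11, 10 of 11, 9 of 10 and 11 of 11 hybridisations. Without replicate 3 of Tolerant1 leaves the call of DY475098 was lost (adjusted p = 0.0932), and that of EB085037 was lost in 5 of 22 such fits. CA0832 averaged 0.48 ± 0.12 and DY475519 (U505) 0.46 ± 0.10 (adjusted p = 0.0104 and 0.00586), and both kept their calls in each of those fits. EB085026, CA0730 and CA0036 stood nearest the threshold, at 0.40, 0.37 and 0.35 (adjusted p = 0.0468, 0.0446 and 0.0468, CA0036 named after its value was seen), each above 0 on 11 of 12 hybridisations. EB085026 and CA0730 lost their calls in 13 and 17 of the 22 fits.

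Of the 5 that fell, CA0689 was the 1 that kept its call in all fits that left out 1 hybridisation. It averaged -0.55 ± 0.13 (SE, limma adjusted p = 0.00869) and was below 0 on 11 of 12 hybridisations. DY475055 averaged -0.67 ± 0.21, CA0761 -0.65 ± 0.18, DY475299 (U262) -0.47 ± 0.14 and DY475330 (U310) -0.37 ± 0.10 (adjusted p = 0.0468, 0.0245, 0.0468 and 0.0191). These 4 lost their calls in 15, 6, 14 and 3 of the 22 fits. DY475330 lost its call without replicate 1 of Susceptible2 leaves, replicate 1 of Tolerant2 leaves or replicate 3 of Tolerant1 leaves. The mean of CA0761 was 0.25, -1.39 and -0.16 in the 3 quantification periods, the first from 1 hybridisation.

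**Figure D4:**
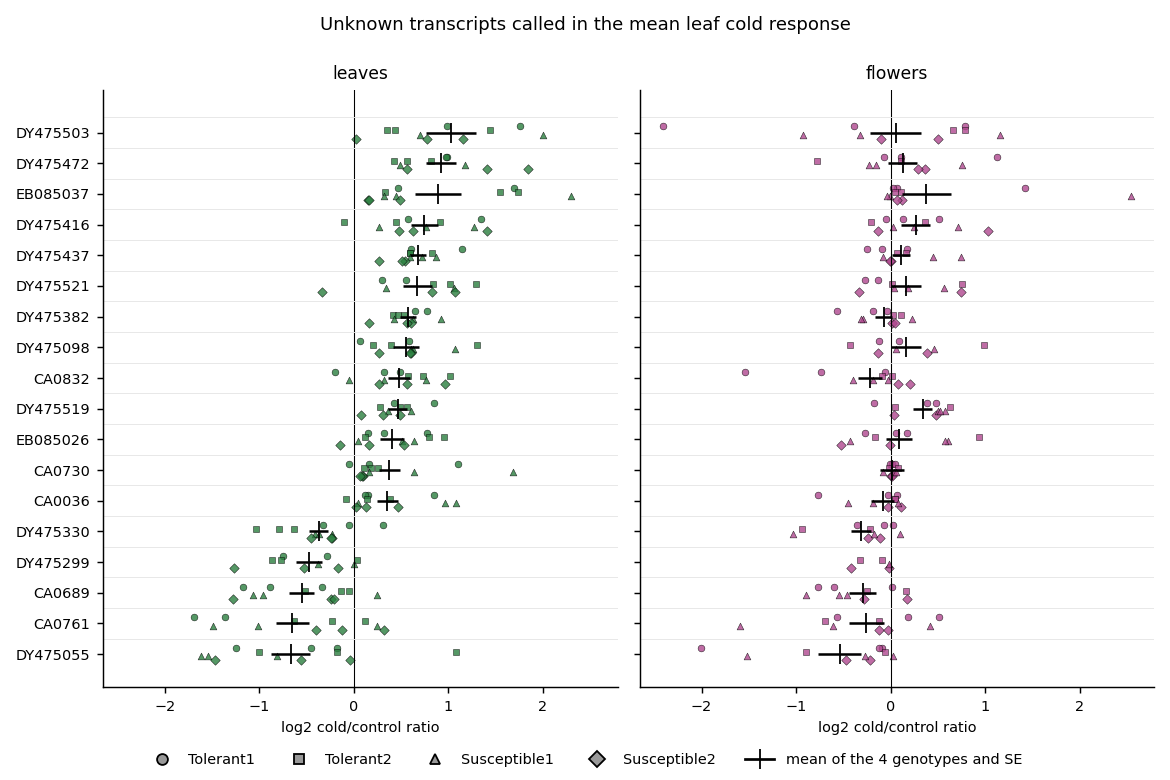
Cold over control log2 ratio (horizontal axis) of the 18 Unknown transcripts called in the mean of leaves, on each hybridisation, with leaf hybridisations in the left panel and flower hybridisations in the right, and the mean with its SE marked. Leaf points lie all above 0 for DY475437 and DY475382, while their flower points lie on both sides of 0.

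The 18 were called on the mean of all leaf hybridisations, which in part sets their sign in each period. Within the second and last quantification periods, each of the 13 rising and 5 falling transcripts kept its sign. Within the first, 9 of 9 rising and 3 of 4 falling transcripts with values did so. Tolerant1 and Susceptible1 alone called 10 of 177 members in leaves (5.65%, with 6.48% of all features called), and Tolerant2 and Susceptible2 alone called 8 of 185 (4.32%, with 4.04% of all features called). The sign of the mean leaf ratio was the same in both sets for 102 of 170 Unknown transcripts (60%), beside 244 of 406 features of all kinds (60.1%).

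Several transcripts called in cold leaves also differed between leaves and flowers of control plants. The leaf control channel enters both measures, so they are given side by side and no relation between them is drawn. For the transcripts that rose in cold leaves, the control difference, leaves minus flowers, was -1.80 for DY475437, -1.62 for DY475503, -1.21 for DY475472, -1.09 for DY475382, -0.64 for CA0832, -0.64 for DY475519 and -0.46 for CA0730, each called. It was not called for the other 6. Among those that fell it was 1.25 for CA0761, 0.90 for DY475330 and -1.34 for DY475055, each called.

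In flowers, DY475191 (U152) was the only Unknown transcript of 179 tested whose mean cold response passed the test, and it rose. Over all features 1.12% were called, 0.673% higher and 0.448% lower. An unadjusted p below 0.05 was reached by 17 members, beside 35 of 446 features of all kinds. The flower ratios of DY475191 were 0.63, 1.27 and 0.83 for Tolerant1, 0.38 and 0.52 for Tolerant2, 0.42, 1.13 and 0.79 for Susceptible1 and 0.12 and 0.46 for Susceptible2. All 10 were above 0, those of Tolerant1 and Susceptible1 mostly higher, and the mean was 0.61 ± 0.12 (SE, limma adjusted p = 0.0178). In leaves it averaged 0.38 ± 0.12 (adjusted p = 0.0613). Its flower call was lost without any 1 of the 4 flower hybridisations of Tolerant2 and Susceptible2 (adjusted p 0.0506 to 0.0965).

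The next highest flower means were those of DY475336 (0.55), DY475178 (0.54), EB085037 (0.38) and CA0880 (0.38), with adjusted p between 0.0740 and 0.847. The lowest were those of EB085028 (-0.76), DY475232 (-0.72), DY475055 (-0.54), EB085024 (-0.54) and DY475187 (-0.49), with adjusted p between 0.277 and 0.535. None passed. Their spread was wide: the flower ratios of DY475232 ran from -2.80 to 0.25 and those of EB085028 from -2.70 to 0.25. EB085024 was below 0 on all 10 flower hybridisations, from -1.91 to -0.07.

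Leaves and flowers differed in their response to cold for 3 of 170 Unknown transcripts, each higher in leaves (1.76%, where 1.72% of all features tested differed). At an unadjusted p below 0.05 there were 13, beside 32 of 406 features of all kinds. The median difference was 0.06 for the members and 0.04 for all features. DY475382 differed by 0.64 ± 0.12 (SE, limma adjusted p = 0.00949). Its flower ratios were -0.03, -0.57 and -0.18 for Tolerant1, 0.11 and 0.02 for Tolerant2, -0.29, -0.31 and 0.22 for Susceptible1 and 0.01 and 0.05 for Susceptible2. Leaf and flower values overlapped on the lowest leaf value alone, and the call held in every fit that left out 1 hybridisation and was lost in 1 of 11 other alternatives (adjusted p = 0.137).

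DY475437 differed by 0.57 ± 0.13 (limma adjusted p = 0.0271). Its flower ratios were -0.09, 0.18 and -0.25 for Tolerant1, 0.07 and 0.16 for Tolerant2, -0.08, 0.45 and 0.74 for Susceptible1 and 0.01 and -0.01 for Susceptible2, so that 2 of the Susceptible1 values lay within the leaf range. The call was lost in 9 of the 22 fits that left out 1 hybridisation and without the 4 hybridisations of the first quantification period.

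CA0832 differed by 0.70 ± 0.17 (limma adjusted p = 0.0445). Its leaf ratios were 0.32, 0.48 and -0.20 for Tolerant1, 0.73, 1.02 and 0.57 for Tolerant2, 0.32, 0.76 and -0.05 for Susceptible1 and 0.97, 0.56 and 0.26 for Susceptible2. Its flower ratios were -0.06, -1.54 and -0.74 for Tolerant1, 0.02 and -0.09 for Tolerant2, -0.03, -0.39 and -0.19 for Susceptible1 and 0.20 and 0.08 for Susceptible2. The low flower values were those of Tolerant1, and the call was lost in 16 of the 22 fits.

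**Figure D5:**
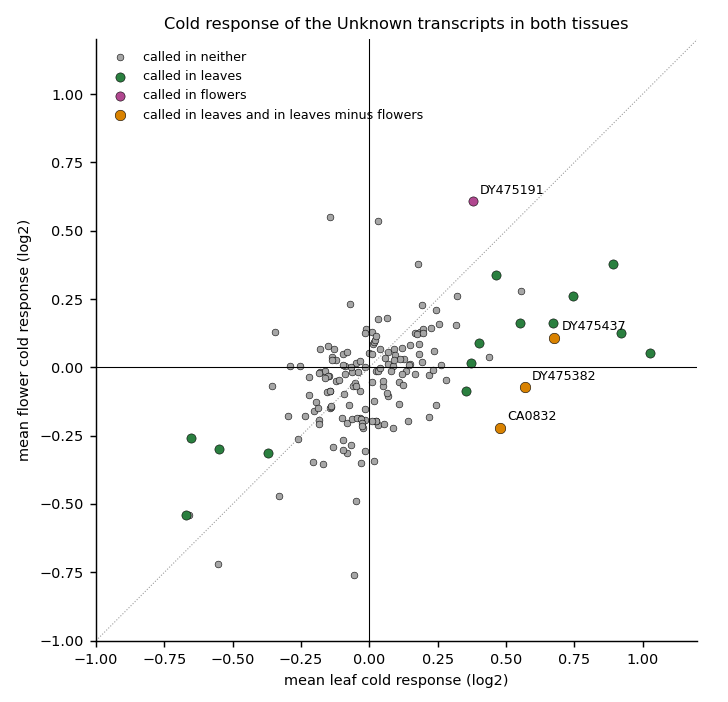
Mean cold over control log2 ratio over the 4 genotypes in leaves (horizontal axis) and in flowers (vertical axis), 1 point for each of the 170 Unknown transcripts tested in all groups. DY475437 and DY475382 lie at 0.68 and 0.57 in leaves and near 0 in flowers, CA0832 lies below 0 in flowers, and DY475191 lies highest in flowers at 0.61.

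Larger differences that missed the threshold were those of DY475503, 0.98 ± 0.38 (limma adjusted p = 0.324), DY475472, 0.79 ± 0.22 (0.106), and EB085028, 0.70 ± 0.39 (0.763). The lowest were DY475336 (-0.69), DY475178 (-0.50), DY475260 (-0.48), CA0761 (-0.39) and DY475293 (-0.31), none of which passed. Of the 18 members called in leaves, 17 had a tested flower mean, and 14 of these had the same sign in flowers. Leaf and flower ratios share no hybridisation, but they share quantification periods, and cold RNA carried Cy5 on 14 of the 22 hybridisations. Agreement in sign between the tissues is therefore only a description. Over the 8 group means, 7 members were above 0 in every group and 8 were below 0 in every group, given without a share over all features and so not as a trait of the members.

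No difference between tolerant and susceptible genotypes passed the test. The difference in cold response, tolerant minus susceptible, passed the limma test for 0 of 176 members in leaves and 0 of 179 in flowers, where 0% of all features tested passed in each. An unadjusted p below 0.05 was reached by 1 and 0 members, beside 8 of 445 and 1 of 446 features of all kinds. The 1 member in leaves was DY475191, at 0.62 ± 0.24 (SE, limma adjusted p = 0.995). The differences ran from -0.72 to 0.68 in leaves and from -1.01 to 0.39 in flowers, with median SEs of 0.239 and 0.262. A p that misses the threshold does not show that the genotypes respond alike.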

How the data were processed

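The deposited scanner files (ImaGene 5.5) held, per the file headers, 1 channel of 1 hybridisation each, with the mean foreground and local background intensity of 6 spots per feature and a quality flag. The authors' methods subtracted background, left out flagged spots, applied LOWESS and averaged replicates. The deposited table of 1 combined log2 ratio per feature and group came from those steps. Its column medians were -0.198, -0.184, -0.0333 and -0.0353 for Tolerant1 leaves, Tolerant2 leaves, Tolerant1 flowers and Tolerant2 flowers, and -0.115, -0.156, -0.0663 and -0.06 for Susceptible1 leaves, Susceptible2 leaves, Susceptible1 flowers and Susceptible2 flowers. Against the group means computed here its r was 0.58 to 0.906, so its direction is cold over control, while its centring and scale are not known. It was used only as an alternative. With no test, more members were at least 2-fold lower than higher in each group of it. In leaves 18 were lower and 7 higher for Tolerant1, 21 and 3 for Tolerant2, 22 and 4 for Susceptible1, and 14 and 2 for Susceptible2. In flowers they were 14 and 2, 2 and 0, 6 and 3, and 4 and 2, in the same order. The tested mean of leaves leaned the other way, with 13 members called higher and 5 lower at any size.

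From the scanner files, intensities were corrected with normexp (offset 50) and normalised within arrays by loess (span 0.3, 4 iterations; flagged and control spots at weight 0) in limma 3.58.1 (R 4.3.3). Unflagged spots of a feature were averaged and ratios turned to cold over control. Control channel levels came from Aquantile normalisation with a centred dye term. Dyes and replicate numbers were read from the file names, and 22 of 24 hybridisations have headers naming the same dyes. A feature needed a signal of 2 times its background in 1 channel of 1 hybridisation, and at least 2 values in each group tested. All 8 groups entered 1 limma fit over all features, and p-values from the moderated test were adjusted by Benjamini-Hochberg over all tested features. A check on simulated data drew each hybridisation independently, so it cannot show how the fit behaves where hybridisations vary together. The number of arrays limits the precision. Replicate numbers were not taken to pair the samples, because the labels tie them to no shared plant. Replicate 1 of Tolerant1 and Susceptible1 did share the first quantification period. Of 11 same-numbered pairs, 10 had r of the ratios above 0.1 and 1 had -0.11. A block for the replicate number was run only as an alternative, so the reported fit treats same-numbered hybridisations as independent. With the block fewer members were called, as given below.

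Features were named through the printed list by print order. A full position could be read for 732 of the 768 features, and all 732 matched. The other features rest on print order alone. The list had 769 lines, and 1 line for a blank was left out to fit the 768. Members, lists and tests were chosen with earlier results of these data known. Named were all called members (the 12 largest in a direction), the 5 highest and lowest of each contrast, the widest member of 1 sign in each group and the 3 most alike pairs. Other names were added after their values were seen.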

Additional observations from a re-analysis of the deposited data

Results flagged for a closer look

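A difference between tissues under the same contrast, cold against control, was found for 3 Unknown transcripts by the limma interaction test. These were 1.76% of the 170 tested, beside 1.72% of all features, so the share was near that of the whole array. The cold response in leaves exceeded that in flowers by 0.64 on the log2 scale for DY475382, by 0.57 for DY475437 and by 0.70 for CA0832. The mean in leaves and in flowers was 0.57 and -0.07 for DY475382, 0.68 and 0.11 for DY475437, and 0.48 and -0.22 for CA0832. Other settings called 0 to 5 members, and DY475382 alone stayed called with flagged spots kept or with median centring.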

How the results depend on the processing

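No member was called in a single group in the reported setting. The sum over the 8 groups was 3 with a dye term, 4 with identical files counted, 1 with the strict filter and 2 without the 4 hybridisations of the first quantification period, an alternative chosen after seeing the data. In the authors' deposited ratios, with no test, 124 values reached 2-fold, more of them lower than higher, with no share over all features counted. Leaving out 1 hybridisation gave 0 to 5, with 5 without Tolerant1 flowers replicate 3. The 18 calls in the mean of leaves became 9 with the replicate block and 2 with the quantification period as a random block, and 9 to 23 with 1 hybridisation left out, with 9 without Tolerant1 leaves replicate 3 and 11 without Susceptible1 leaves replicate 2. The 1 call in flowers became 2 with a dye term, 6 with identical files counted and 0 with flagged spots kept, with the period block and with the replicate block, and 0 to 2 with 1 hybridisation left out. The 3 calls of leaves minus flowers became 1 with flagged spots kept, 1 with median centring, 5 with identical files counted and 0 with the replicate block, where DY475382 had an adjusted p of 0.137, and 1 to 4 with 1 hybridisation left out. The 60 differences in control abundance became 32 with the replicate block, 51 to 75 in the other alternatives and 53 to 69 with 1 hybridisation left out. Both tolerant minus susceptible counts were 0 in every setting.

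Same-numbered hybridisations of a set deviated together in 10 of 11 pairs (r of the ratios from -0.11 to 0.79, mean 0.43). Each hybridisation was also set against only the 2 or 3 of the other genotype of its set and tissue. Of 22 hybridisations, 20 correlated best with the one of their own number, a hint from the data and not from the design. In groups of 2 the deviations mirror each other, so those are not separate. The replicate block had a fitted correlation of 0.469 for ratios and 0.643 for control levels. Of 2412 values of named members under alternatives, 2210 kept direction and side of the threshold, 180 lost the call, 19 gained it, 2 shifted and 1 reversed: the control abundance difference of DY475373 was -0.010 with flagged spots kept. The cause of these changes was not tested.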
